A study of Mus musculus with 2 samples.

Results

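Intergenic open-chromatin peaks at more than 10 kb and at most 100 kb from the nearest protein-coding promoter were described in regulatory T cells of the mouse. Such a peak had its summit outside every annotated gene, more than 1 kb from every transcription start site (TSS), and within that distance range of the nearest protein-coding TSS. Each interval was placed at its summit of highest signal, the authors' enrichment value, so the signal fixed which summit was classified and which value was reported, and the rule beyond that used position only. It was met by 5168 of 34610 peaks (14.9%, exact 95% interval 14.6 to 15.3%), which are called distal intergenic peaks here.

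Open chromatin away from promoters holds enhancers, where transcription factors bind and act on genes along the chromosome, and sites of the insulator protein CTCF, which with cohesin anchors chromatin loops. In T cells the ETS and RUNX families are the main lineage factors at such elements, and AP-1, NF-kB and IRF factors join them after signals through the antigen receptor and costimulatory receptors. Regulatory T cells are CD4 T cells that depend on the transcription factor Foxp3 and restrain immune responses, in part through the inhibitory receptor Ctla4.

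The assay was ATAC-seq, in which the Tn5 transposase inserts sequencing adapters into accessible DNA. The cells were primary regulatory T cells of an adult male, aged 4 months, entered as 1 donor, of the cross Foxp3CreERT2 x Rosa26YFP, and the labels trace them to bone marrow haematopoietic cells. In that cross a tamoxifen-inducible Cre is driven from the Foxp3 gene and a YFP reporter lies at Rosa26. The sources used here do not give tamoxifen treatment, the tissue sampled, the sort or any pooling of animals. The 2 libraries were technical replicates of 1 biological replicate and entered the same pooled peak lists. No control or other cell type was analysed here, the depth is unknown, and the spread between animals is unmeasured. All values therefore describe 1 pool of cells, and differences are read against counting error only.

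Sequences from 7 distal intergenic peaks, centred on the motif, show the motifs that the results turn on. Each is from the peak of highest signal that holds that motif within 100 bp of its summit (1 chromosome was left out of this choice). The nearest protein-coding gene names the peak, signal is the authors' enrichment value, and capitals mark the motif. All are 80 bases of the plus strand of GRCm38 (mm10), written 5′ to 3′. The CTCF example lies at chr1:135753056-135753135 (signal 31.6), the ETS one at chr5:120831187-120831266 (36.6) and the RUNX one at chrX:143483067-143483146 (62.7). The AP-1 example lies at chr4:122898539-122898618 (36.3) and the NF-kB one at chr4:16112608-16112687 (29.7). The composite element of BATF and IRF factors lies at chr12:3339025-3339104 (27.9), and the TCF/LEF example at chr8:36010567-36010646 (30.4).
CTCF, Phlda3: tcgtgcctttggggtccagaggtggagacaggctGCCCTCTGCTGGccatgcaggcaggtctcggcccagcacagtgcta
ETS, Oas1f: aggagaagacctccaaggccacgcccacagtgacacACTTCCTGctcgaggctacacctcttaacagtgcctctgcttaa
RUNX, Pak3: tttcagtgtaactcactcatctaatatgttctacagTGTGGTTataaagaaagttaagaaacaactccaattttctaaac
AP-1, Cap1: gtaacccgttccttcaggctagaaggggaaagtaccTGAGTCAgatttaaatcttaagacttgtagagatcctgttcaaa
NF-kB, Ripk2: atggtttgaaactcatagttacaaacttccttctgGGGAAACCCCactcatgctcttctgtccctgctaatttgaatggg
BATF-IRF, Kif3c: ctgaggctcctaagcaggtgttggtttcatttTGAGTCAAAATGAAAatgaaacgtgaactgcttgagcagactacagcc
TCF/LEF, Prag1: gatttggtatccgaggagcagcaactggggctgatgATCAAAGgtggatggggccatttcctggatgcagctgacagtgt
The Oas1f and Kif3c summits lie in repeat-masked sequence, and the other 5 do not. The Phlda3 and Pak3 summits lie outside the printed bases, with the motif centre at −52.5 and 46 bp from the summit. A match is a description of letters and does not show that a factor was bound.

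A further 4 sequences come from loci described below and were chosen after their values were seen. They are a FOX motif (TGTTTAC, here on the minus strand) beside S1pr1 at chr3:115682866-115682945 and a CTCF motif beside the same gene at chr3:115661174-115661253. An AP-1 motif upstream of Ctla4 lies at chr1:60823049-60823128, and an NF-kB motif downstream of the Tnfaip3 TSS at chr10:18965053-18965132.
FOX, S1pr1: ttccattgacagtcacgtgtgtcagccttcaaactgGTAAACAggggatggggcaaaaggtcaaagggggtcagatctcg
CTCF, S1pr1: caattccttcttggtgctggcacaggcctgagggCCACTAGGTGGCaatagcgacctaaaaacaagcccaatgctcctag
AP-1, Ctla4: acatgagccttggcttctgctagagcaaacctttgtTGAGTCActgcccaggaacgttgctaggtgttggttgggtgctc
NF-kB, Tnfaip3: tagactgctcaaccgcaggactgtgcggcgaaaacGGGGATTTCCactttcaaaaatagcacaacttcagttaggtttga
All 4 are plus-strand bases of the same build.

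Distal intergenic peaks were sparser than peaks as a whole. The sequence that meets the position rule spans 509 Mb, or 19.2% of the assembled bases, against 14.9% of the peaks. It held 10.1 peaks per Mb, against 15.4 per Mb in intergenic sequence at 1 to 10 kb, 1.55 per Mb beyond 100 kb and 13.1 per Mb over all positions. Density thus fell with distance from promoters, and it did so within the range as well. It was 14.6 per Mb at 10 to 20 kb, 12.5 at 20 to 30 kb, 9.89 at 30 to 50 kb, 7.09 at 50 to 75 kb and 5.65 at 75 to 100 kb. The median distance was 28.0 kb (interquartile range 17.0 to 47.6 kb), and the peaks covered 3.24 Mb.

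Signal did not follow that decline. The median signal of distal intergenic peaks was 13.2 (order-statistic 95% interval 13.0 to 13.4), the same to 3 digits as the median over all peaks (13.2), although the deposited −log10 p was lower, with medians of 87.7 and 115. It lay below that of promoter peaks (15.4, interval 15.2 to 15.6) and above that of intergenic peaks at 1 to 10 kb (11.1, 10.7 to 11.4). Peaks beyond 100 kb had a median of 12.95 (12.5 to 13.4), an interval that overlaps that of the distal intergenic peaks. Across the 5 distance bins the median stayed between 13.0 and 13.4, and Spearman's rho of distance and signal was −0.03 over the 5168 peaks, which share libraries and chromosomes. Each signal is the highest among the listed summits of a peak. More than 1 summit was listed in 75.6% of promoter peaks, 47.1% of distal intergenic peaks and 40.1% of those at 1 to 10 kb. The part of this choice in the differences between classes was not tested.

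**Figure D1:**
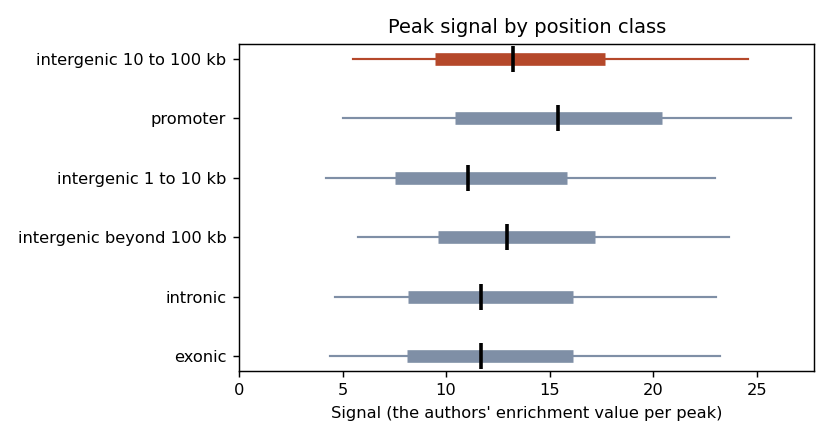
Authors' enrichment value per peak (x axis, linear) for each position class (y axis), with the median as a black bar, the interquartile range as a box and the 5th to 95th percentile as a line. Distal intergenic peaks, in red, have a median of 13.2, between the 15.4 of promoter peaks and the 11.1 of intergenic peaks at 1 to 10 kb.

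Distal intergenic peaks were narrower than promoter peaks, low in CpG and mostly outside repeats. Their median width was 587 bp, against 490 bp at 1 to 10 kb and 911 bp for promoter peaks. More than 1 summit was listed in 47.1% of them, against 75.6% of promoter peaks. The 200 bp around the summit had a median GC content of 49.0%, against 45.0% in windows 1 kb away. The observed over expected CpG ratio had a median of 0.275, close to the 0.278 at 1 to 10 kb and far from the 0.758 of promoter peaks. Repeat-masked bases made up 12.4% of the summit windows, against 29.7% of the windows 1 kb away and 42.4% of all bases that meet the position rule. Of the summits, 495 (9.58%) were themselves repeat-masked, against 5.08% of promoter peaks and 8.02% of all peaks. Intronic peaks were similar in these traits, with a median width of 560 bp, a CpG ratio of 0.238 and 10.2% of summits repeat-masked.

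Position around the nearest gene was close to what the sequence offers. Of the distal intergenic peaks, 3023 (58.5%, 57.1 to 59.8%) lay upstream of the nearest protein-coding TSS and 2145 downstream, whereas 59.7% of the bases that meet the rule lie upstream. The median signal was 13.5 (13.1 to 13.8) upstream and 12.9 (12.7 to 13.2) downstream. Protein-coding promoters define the distance here, and many of these peaks lie nearer to another kind of gene. The nearest TSS of any gene was noncoding for 3090 of them (59.8%), among which 1190 were nearest to a pseudogene and 936 to a long intergenic noncoding RNA. In 1337 cases (25.9%) some annotated TSS lay within 10 kb.

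The state of the nearest promoter went with the density of these peaks and hardly with their strength. The nearest protein-coding gene itself had a promoter peak for 3947 of the distal intergenic peaks (76.4%, 75.2 to 77.5%), although the territories of such genes hold 40.9% of the bases that meet the rule. Other classes were close or higher, so the share is not particular to these peaks. It was 77.2% for intergenic peaks at 1 to 10 kb, 76.6% beyond 100 kb and 85.5% for intronic peaks. Over all peaks, which include promoter peaks, it was 87.8%. Of all protein-coding genes, 11537 of 21938 (52.6%) had a promoter peak. Density was 18.97 per Mb around genes with a promoter peak and 4.05 per Mb around genes without one, a ratio of 4.68. In contrast, the median signal was 13.3 (13.0 to 13.5) around genes with a promoter peak and 13.1 (12.8 to 13.6) around genes without a promoter peak.

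**Figure D2:**
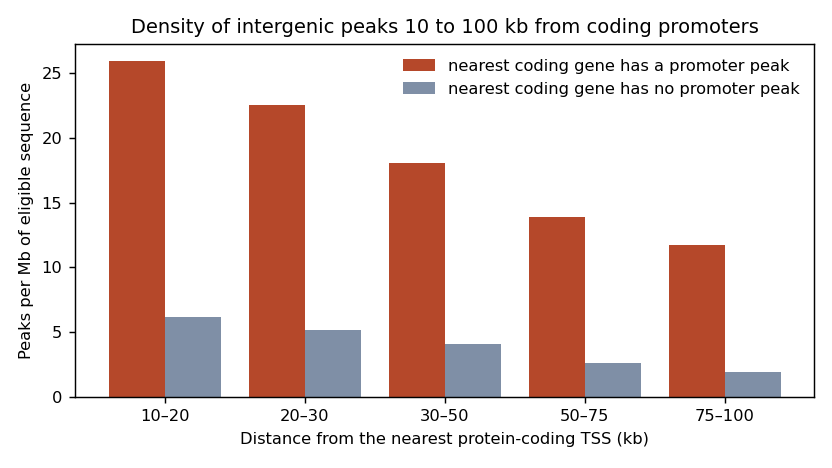
Distal intergenic peaks per Mb of sequence that meets the position rule (y axis), by distance from the nearest protein-coding TSS (x axis, kb), for genes with a promoter peak (red) and genes without one (grey). The red bars run between 26.0 and 11.8 per Mb and the grey bars between 6.14 and 1.95 per Mb, and both fall with distance.

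The higher density beside genes with a promoter peak was seen in each of the 5 distance bins. At 10 to 20 kb the density was 26.0 per Mb beside genes with a promoter peak and 6.14 per Mb beside genes without, a ratio of 4.23. At 75 to 100 kb it was 11.8 per Mb beside genes with a promoter peak and 1.95 per Mb beside genes without, a ratio of 6.02. The ratio was thus no smaller at the far end of the range. Counted by gene, 2021 of 6341 genes with a promoter peak and with sequence that meets the rule had at least 1 distal intergenic peak (31.9%, 30.7 to 33.03%). Among genes without a promoter peak it was 768 of 7278 (10.6%, 9.86 to 11.3%).

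Distal intergenic peaks were nearest to 2789 protein-coding genes, 20.5% of the 13619 that have sequence meeting the rule, and most of these genes had few. A single peak fell to 1664 genes, 2 peaks to 563 and 3 peaks to 273. S1pr1, the sphingosine-1-phosphate receptor that guides lymphocytes out of lymphoid organs, had the most, with 17. Gm9887 had 13, and 12 each fell to the zinc-finger gene Zfp217, the ubiquitin ligase adaptor gene Klhl25 and Fasl, the ligand of the death receptor Fas. With 11 each followed Irf2bpl, the chemokine receptor gene Cxcr4, the costimulatory receptor gene Icos, the small GTPase gene Rap1b and Tmsb4x, the gene of the actin-sequestering thymosin beta 4. All 10 of these genes had a promoter peak. The counts also depend on how much sequence meets the rule around each gene, which lay between 66.9 kb (Rap1b) and 166 kb (S1pr1). Their median signals lay between 8.03 (Gm9887) and 10.8 (Fasl), below the 13.2 of all distal intergenic peaks.

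Most lists of T cell genes lay above protein-coding genes as a whole, which had 10.1 distal intergenic peaks per Mb and at least 1 such peak in 20.5% of genes, and above genes with a promoter peak, at 18.97 per Mb and 31.9%. In the Treg signature list, all 12 genes that have sequence meeting the rule had at least 1 such peak (100%, 73.5 to 100%), at 74.6 per Mb and with a median of 3.5 peaks per gene. In the list of resting and homing genes it was 10 of 11 (58.7 to 99.8%, 75.6 per Mb), and in the list of activation and NF-kB genes 11 of 13 (54.6 to 98.1%, 52.7 per Mb). Genes of T cell identity had a peak in 10 of 15 cases (38.4 to 88.2%, 42.8 per Mb), and lymphocyte transcription factors in 17 of 23 (51.6 to 89.8%, 31.8 per Mb). Cytokine and chemokine receptors had one in 13 of 22 cases (36.4 to 79.3%, 55.4 per Mb), and effector or tissue Treg genes in 10 of 15 (38.4 to 88.2%, 28.1 per Mb). For inhibitory receptors, with 4 of 8 (46.5 per Mb), the interval of 15.7 to 84.3% contains the shares over all genes and over genes with a promoter peak. The lists share genes, such as Ctla4, so their counts are not independent.

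Lists for other cell types had lower densities than these T cell lists, apart from NK and cytotoxic genes, some of which regulatory T cells also use. That list had a distal intergenic peak in 7 of 13 cases (25.1 to 80.8%, 65.4 per Mb), led by Fasl, and its interval contains the 31.9% of genes with a promoter peak. B cell genes had one in 3 of 8 cases (8.52 to 75.5%, 20.2 per Mb), myeloid genes in 2 of 10 (2.52 to 55.6%, 13.6 per Mb), and erythroid and megakaryocyte genes in 2 of 6 (4.33 to 77.7%, 20.8 per Mb). Epithelial genes had one in 4 of 10 cases (12.2 to 73.8%, 19.6 per Mb). These 4 lists were above the 10.1 per Mb of all genes, and their intervals contain the 20.5%. None was nearest to a hepatocyte gene (0 of 10, upper 95% limit 30.8%), a muscle gene (0 of 8, 36.9%) or a neuronal gene (0 of 6, 45.9%), and the 20.5% lies within these limits as well. The labelled cell type was also checked at promoters. Foxp3, Il2ra, Ctla4, Ikzf2, Icos and Cd28 had a peak within 1 kb of an annotated TSS and Cd8a had none, as did Tcf7, while 52.6% of all protein-coding genes had one. Promoter peaks were also present at some genes of the B cell and myeloid lists, so they do not separate cell types by themselves. Foxp3 and Il2ra, which encodes the alpha chain of the interleukin-2 receptor, have no sequence that meets the distance rule, so they could have no distal intergenic peak.

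The genes of costimulation and its inhibitory counterpart, Cd28, Ctla4 and Icos, lie side by side on chromosome 1 and together had 21 distal intergenic peaks between chr1:60652290 and chr1:61068505, with a median signal of 10.2. Positions are given relative to the nearest TSS of the gene, negative upstream. At this and the following loci, strength means signal, and the deposited −log10 p can order the peaks otherwise. Ctla4 had 9, with signals between 5.65 and 28.9. The strongest, chr1:60822815-60823327 at −63.9 kb, reached 28.9 and holds the AP-1 motif printed above, and 3 others at −33.4, −18.4 and 32.0 kb reached 14.6, 14.9 and 14.96. Those at −33.4 and −18.4 kb both hold a CTCF motif. By −log10 p the Ctla4 peak at 32.0 kb led, with 420 against 216 at −63.9 kb. Icos had 11 peaks, the strongest at −16.7 kb (19.8) and a group at 68.3, 77.4 and 90.4 kb with 16.0, 14.9 and 15.4. Cd28 had 1, at −64.2 kb (14.4), with an ETS motif. Ctla4 and Icos thus took 20 of the 21 peaks.

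**Figure D3:**
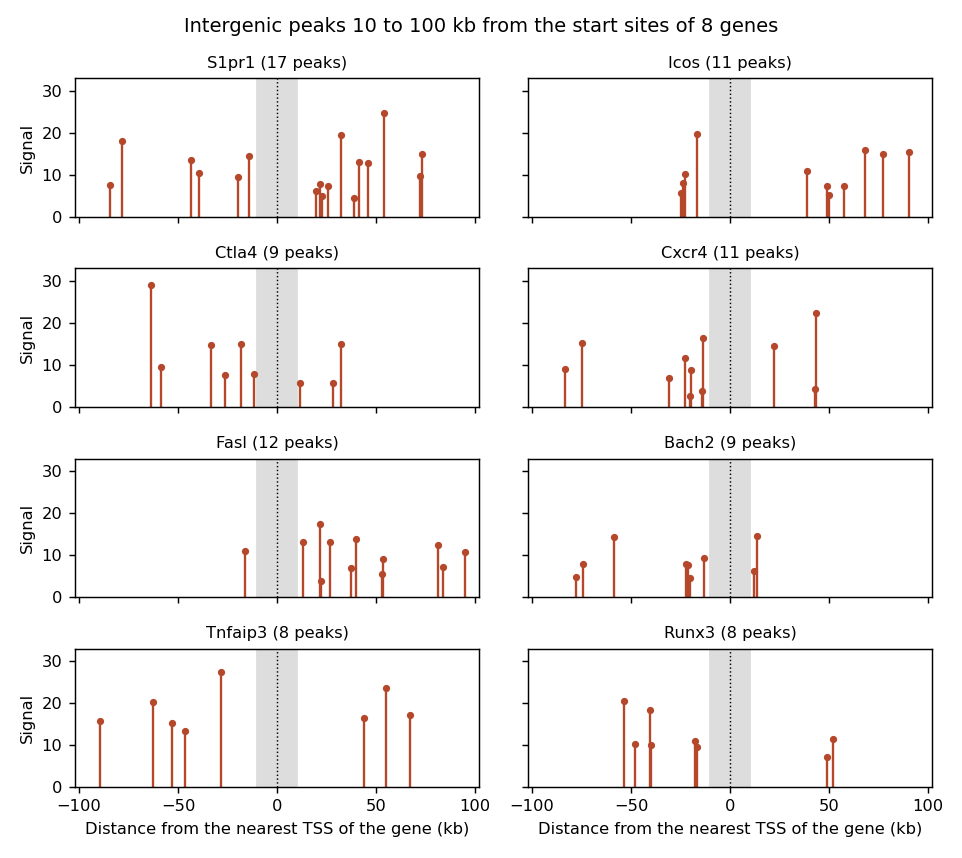
Distal intergenic peaks of 8 genes as stems at their summit (x axis, kb from the nearest TSS of the gene, negative upstream; grey band, the excluded 10 kb on either side) with the authors' enrichment value as height (y axis). S1pr1 has 17 peaks on both sides with a highest signal of 24.7, and Ctla4 has its strongest, at 28.9, at −63.9 kb.

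Among receptor genes, S1pr1 and Cxcr4 had the most distal intergenic peaks of the lists of resting and homing genes and of cytokine and chemokine receptors. Both have much sequence that meets the rule, 166 and 163 kb, and they did not lead by rate. Per 100 kb of it, Cxcr4 had 6.75 peaks, against 14.6 for Il6st of the same list. Tcf7, of the resting and homing list, had 20.7. The 17 peaks of S1pr1 lay between −84.4 and 72.9 kb, at 10.2 per 100 kb of sequence that meets the rule, and their signals ran between 4.52 and 24.7 with a median of 10.4. The strongest, chr3:115661015-115661519 at 53.8 kb, holds the CTCF motif printed above. The next strongest, chr3:115682363-115683227 at 32.2 kb, had a signal of 19.5 and holds a FOX motif. The FOX motif printed above is centred 66 bp from the summit of that peak. By −log10 p the S1pr1 peak at 32.2 kb led, with 455 against 193 at 53.8 kb. Over all distal intergenic peaks, 95 of 794 FOX sites within 500 bp of a summit lay within 50 bp. Foxo1, a FOX factor, is known to control homing receptor genes in T cells, but its part at S1pr1 was not tested. A FOX motif was present in 7 of the 17 peaks of S1pr1, against 3.75% of all distal intergenic peaks, a contrast noticed after the values were seen and not tested. Cxcr4 had 11 peaks with signals between 2.45 and 22.3, the strongest at 43.4 kb with RUNX and AP-1 motifs. Its highest −log10 p was 567 at −22.7 kb, against 377 at 43.4 kb. Ccr7, the receptor that brings T cells into lymph nodes, had 5 weaker ones (6.38 to 12.7), and Il7r, the interleukin-7 receptor gene, had 3 (3.85 to 12.4). Il6st, which encodes the shared receptor chain gp130, had 7 (4.17 to 20.4), all upstream, and Tgfbr2, a receptor for TGF-beta, had 4 (8.92 to 12.1).

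Several genes of activation and of the effector state had a peak among the stronger ones, though the highest of several peaks can rise with their number. Their median signals lay on both sides of the 13.2 of all distal intergenic peaks, such as 8.96 for Gzmk and 20.7 for Pdcd1. Tnfaip3, which encodes the NF-kB inhibitor A20, had 8, all at or above a signal of 13.3. The strongest, at −28.4 kb, reached 27.4, and those at 55.0 and −62.6 kb reached 23.6 and 20.2. The Tnfaip3 peak of lowest signal, at −46.7 kb (13.3), had the highest −log10 p, 724 against 364 at −28.4 kb. The one at 43.8 kb (16.3) holds the NF-kB motif printed above. Nfkb1, which encodes the NF-kB subunit p50, had 4 (9.74 to 21.8), and the adhesion receptor gene Cd44 had 6 (7.61 to 24.3), all upstream. Nt5e, the gene of the ectonucleotidase CD73 that makes adenosine, had 5, and the farthest, at −85.4 kb, was the strongest (32.6). Tnfrsf8, which encodes CD30, had 4, with 32.2 at −38.9 kb and 25.2 at −46.1 kb. Maf, a transcription factor gene of effector T cells, had 4 (10.2 to 24.7). At Nfkb1, Cd44, Nt5e, Tnfrsf8 and Maf the peak of highest signal also had the highest −log10 p. The inhibitory receptor gene Pdcd1 had 3, with 24.7 at −39.4 kb, 20.7 at −26.7 kb and 6.17 at −22.5 kb, and Btla, another inhibitory receptor gene, had 1 (14.8). For Pdcd1 the −log10 p was highest at −26.7 kb, with 421 against 180 at −39.4 kb. Gzmb, the granzyme B gene, had 3 (11.5 to 21.04), all upstream, Gzmk, another granzyme gene, had 3 (5.75 to 12.5), and Fasl had 12 (3.67 to 17.5). The activation marker gene Cd69 had 4, all downstream of its TSS (7.96 to 17.6).

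The transcription factor genes named in this paragraph had between 1 and 9 distal intergenic peaks each. Bach2, a repressor that keeps T cells in a resting state, had 9 peaks with signals between 4.45 and 14.6. Runx3 had 8 (7.18 to 20.5) and Runx1 had 1 (16.8). The strongest of Runx3, at −53.7 kb, holds a CTCF motif, and the next, at −40.6 kb with 18.4, holds RUNX and AP-1 motifs. The latter had the higher −log10 p, 279 against 113. Tcf7, which encodes TCF-1, had 6 upstream peaks, the nearest 2 of which, at −11.3 and −16.8 kb, were the strongest (20.1 and 19.05). Tcf7 itself had no promoter peak in this list, nor did Klrg1, a receptor gene of effector cells, which had 5 distal intergenic peaks (4.402 to 13.5). The adhesion receptor gene Cd2, of the T cell identity list, had 4 (4.74 to 11.5). The neighbouring ETS factor genes Fli1 and Ets1 had 3 and 4, and the strongest of these, at −28.0 kb from Fli1 (chr9:32570554-32571073), had a signal of 28.9 and both kinds of ETS motif. Id2, an inhibitor of E proteins, had 1 strong peak at −20.9 kb (26.4). Ikzf2, the Helios gene, had 2 (13.4 and 16.9), the chromatin organiser gene Satb1 had 3 (9.03 to 9.96), and Gata3 had 1 (10.2). The cytokine gene Il2, which regulatory T cells do not normally secrete, had 2 (10.8 and 12.4) and a promoter peak.

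ETS, RUNX, AP-1 and CTCF motifs were the most frequent of those found at more than 2 times their level nearby. Motifs were searched as consensus letters on both strands of the 200 bp around each summit, and the same search in windows 1 kb away on both sides gave the local background. The ETS letters were CNGGAAGT, the RUNX letters were TGTGGTT, and the AP-1 letters were TGACTCA, where N is any base. The CTCF, NF-kB, IRF, BATF-IRF, ROR and EBF motifs, which use other letters, are given by name. An ETS motif was found at 695 distal intergenic peaks (13.4%, 12.5 to 14.4%), against 3.30% of windows 1 kb away. A RUNX motif was found at 616 (11.9%, 11.05 to 12.8%), against 4.91%, and an AP-1 motif at 588 (11.4%, 10.5 to 12.3%), against 3.80%. A CTCF motif was found at 533 (10.3%, 9.50 to 11.2%), against 0.193%, a ratio of 53.3. The intervals of neighbours in the order ETS, RUNX, AP-1 and CTCF overlap. None of these 4 motifs was found at 3018 of the peaks (58.4%), while any of the 25 motifs searched was found at 3823 (74.0%). The share of CTCF moved by over 1.5 times, to 6.41%, when every listed summit counted as a peak of its own, and that of RUNX, to 7.91%, in windows of 100 bp.

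**Figure D4:**
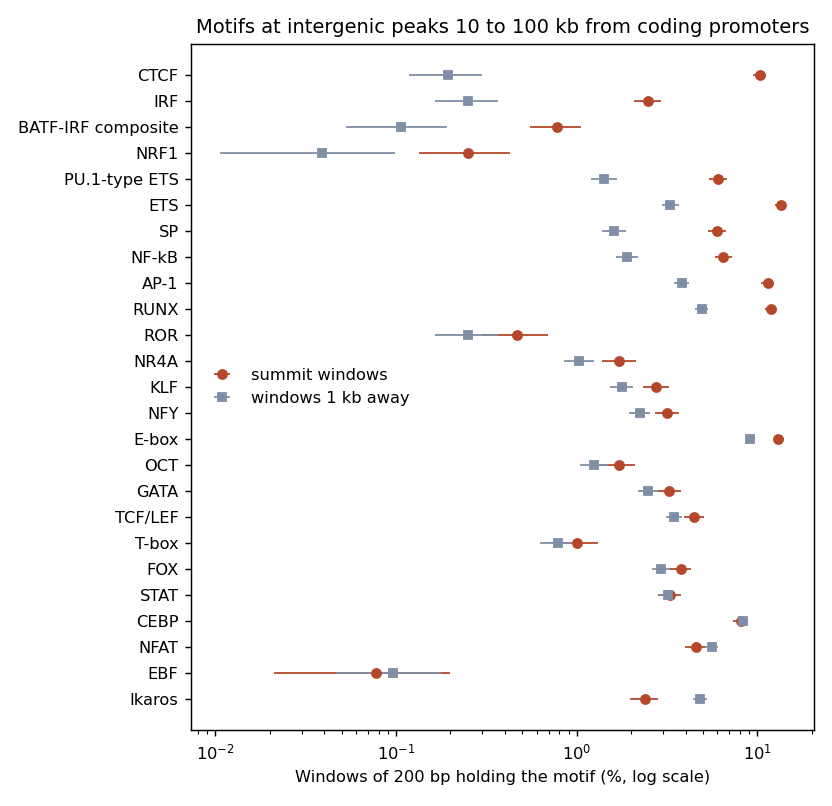
Share of 200 bp windows that hold each of 25 motifs (x axis, %, log scale), at summits of distal intergenic peaks (red circles) and in windows 1 kb away (grey squares), with exact 95% intervals as lines. The CTCF points lie farthest apart, at 10.3% and 0.193%, and the Ikaros points lie in the opposite order, at 2.38% and 4.799%.

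NF-kB, IRF, BATF-IRF, PU.1-type ETS and Sp motifs were also above their local background. NF-kB motifs were found at 335 distal intergenic peaks (6.48%, 5.83 to 7.19%), against 1.91% of windows 1 kb away, and IRF motifs at 128 (2.48%, 2.07 to 2.94%), against 0.252%. The BATF-IRF composite, bound by BATF with JUN and IRF4 in activated T cells, was found at 40 (0.774%, 0.554 to 1.05%), against 0.106%. Every composite contains the AP-1 letters on either strand, so these peaks are counted under both. The PU.1-type ETS letters GAGGAAGT, which cannot be the same site as the other ETS letters, were found at 313 (6.06%), against 1.42%. The Sp letters GGGCGGG were found at 309 (5.98%), against 1.62%.

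TCF/LEF, FOX, GATA, E-box, STAT and CEBP motifs were within 1.5 times their level nearby, and NFAT and Ikaros were below it. The TCF/LEF letters ATCAAAG were found at 4.45% of distal intergenic peaks (3.90 to 5.05%), against 3.44%, the FOX letters TGTTTAC at 3.75% (3.25 to 4.31%), against 2.93%, and the GATA letters AGATAAG at 3.25%, against 2.49%. The E-box CAGCTG was frequent in both, at 13.0% against 9.14%. The STAT letters TTCCNNGAA, which can share bases with an ETS site, had a ratio of 1.02, and the CEBP letters TTGCNNAA 0.964. Below the background were the NFAT letters TGGAAAA, at 4.55% (4.00 to 5.15%) against 5.57%, and the Ikaros letters TTGGGAA, at 2.38% (1.98 to 2.83%) against 4.799%. The KLF letters CCACACCC (2.75% against 1.78%), the NFY letters CCAATCA (3.17% against 2.23%) and the NR4A letters AAAGGTCA (1.72% against 1.04%) were somewhat above it. The octamer ATGCAAAT had a ratio of 1.36, the T-box letters AGGTGTGA 1.28 and ROR 1.85. The NRF1 letters GCGCATGCG and the EBF motif were rare, at 13 and 4 peaks. Base composition differs between the 2 kinds of window, with 49.0% and 45.0% GC, and its part in these ratios was not tested.

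CTCF sites were the most sharply placed of the 4 main motifs. Of 577 CTCF sites within 500 bp of a distal intergenic summit, 509 (88.2%) lay within 50 bp, and those within 100 bp had a median distance of 14 bp from the summit. For ETS, 39.0% of sites lay within 50 bp and the median distance was 28.0 bp, and for AP-1 31.5% and 32.5 bp. For RUNX it was 24.9% and 33.5 bp. Ikaros sites lay within 50 bp in 4.16% of cases, so they were sparse at summits rather than centred on them.

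**Figure D5:**
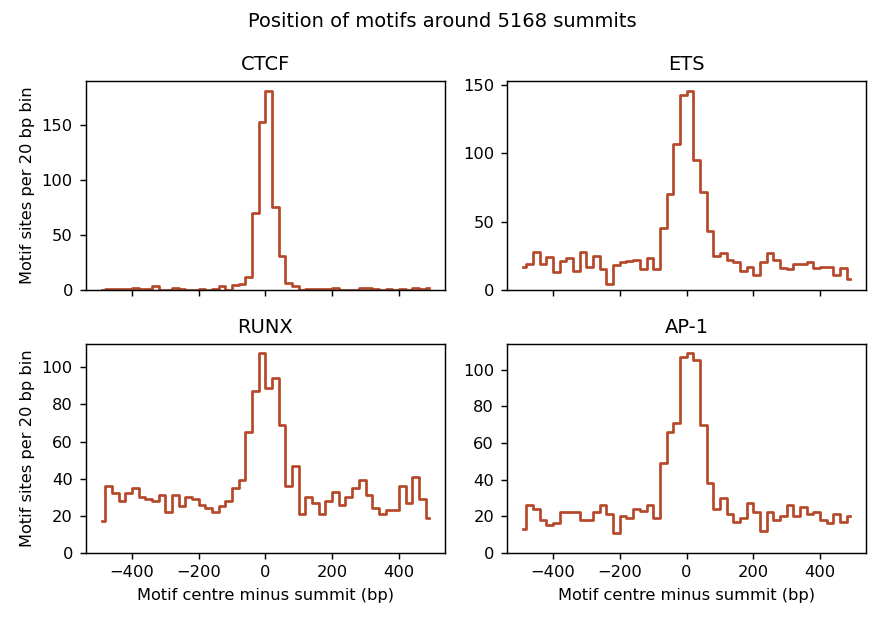
Number of motif sites per 20 bp bin (y axis) by distance of the motif centre from the summit (x axis, bp) over 5168 distal intergenic peaks, for CTCF, ETS, RUNX and AP-1. CTCF sites form a narrow peak with 88.2% of sites within 50 bp, while 24.9% of RUNX sites lie that close.

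The motif make-up of distal intergenic peaks differed from that of promoter peaks and shifted along the distance axis. CTCF motifs were at 10.3% of distal intergenic peaks (9.50 to 11.2%), against 2.36% of promoter peaks (2.11 to 2.63%), 11.7% of intergenic peaks at 1 to 10 kb (10.4 to 13.1%) and 5.88% beyond 100 kb (4.58 to 7.404%). Intronic peaks had 6.66% (6.21 to 7.14%). RUNX motifs were at 11.9% of distal intergenic peaks, against 4.27% of promoter peaks (3.93 to 4.62%), and AP-1 motifs at 11.4%, against 3.48% (3.18 to 3.80%). Over windows 1 kb away, the RUNX ratio was 2.43 at distal intergenic peaks and 0.917 at promoter peaks, and the AP-1 ratio was 2.99 and 1.12 in that order. For ETS motifs the intervals overlapped, with 13.4% of distal intergenic peaks (12.5 to 14.4%) and 14.1% of promoter peaks (13.5 to 14.7%). Sp motifs ran the other way, at 5.98% (5.35 to 6.66%) of distal intergenic peaks and 36.9% (36.1 to 37.7%) of promoter peaks. Sp was also low in the other classes, at 7.42% of intergenic peaks at 1 to 10 kb, 4.37% of intronic peaks and 3.33% beyond 100 kb.

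Within the range, CTCF fell as distance grew. Its share was 12.5% at 10 to 20 kb (10.9 to 14.2%), 11.1% at 20 to 30 kb, 9.58% at 30 to 50 kb, 7.51% at 50 to 75 kb and 7.02% at 75 to 100 kb (4.85 to 9.76%). The intervals of the first and last bins did not overlap. For ETS the share was 12.5% in the first bin (10.9 to 14.2%) and 14.3% in the last (11.2 to 17.8%), and for RUNX 10.5% (9.07 to 12.04%) and 12.3% (9.41 to 15.6%). For AP-1 it was 10.7% (9.29 to 12.3%) and 11.4% (8.63 to 14.7%). For these 3 motifs the intervals of the first and last bins overlapped. By chromosome, the density of distal intergenic peaks lay between 8.12 per Mb on chromosome 14 and 15.8 per Mb on chromosome 10 among autosomes, and was 3.46 per Mb on X and 0.277 per Mb (6 peaks) on Y.

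Peaks with a CTCF motif formed a group of their own among the distal intergenic peaks. An ETS motif was found at 5.25% of those with a CTCF motif (3.52 to 7.50%), against 14.4% of those without (13.4 to 15.4%). For RUNX the shares were 4.13% (2.60 to 6.18%) and 12.8% (11.9 to 13.8%), and for AP-1 2.63% (1.44 to 4.37%) and 12.4% (11.4 to 13.4%). No BATF-IRF composite was found among the 533 with CTCF, which allows a share of up to 0.690% by the exact interval, against 0.863% of those without. Each of the 3 other main motifs was thus less frequent beside CTCF. ETS and RUNX showed no such contrast, with RUNX at 11.8% of peaks with an ETS motif (9.49 to 14.4%) and 11.9% of peaks without (11.002 to 12.9%). Some pairs without CTCF did differ. NF-kB was at 4.03% of peaks with an ETS motif (2.69 to 5.77%) and 6.86% of those without (6.14 to 7.64%). STAT, whose letters can share bases with an ETS site, was at 5.47% (3.90 to 7.43%) and 2.93% (2.45 to 3.47%).

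The CTCF group also stood apart in shape and place. Its median signal was 14.2 (13.6 to 14.8), against 13.1 (12.9 to 13.3) for distal intergenic peaks without the motif, yet its median width was 486 bp, against 599 bp. The nearest gene had a promoter peak for 68.9% of those with a CTCF motif and 77.2% of those without. The nearest other peak lay at a median of 11.5 kb from those with the motif and 8.06 kb from those without. The motif pointed along the plus strand in 248 cases and along the minus strand in 285. Peaks with an ETS motif had a median signal of 14.1 (13.5 to 14.8), against 13.1 (12.9 to 13.3) without.

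Signal went with width, and the shares of ETS, AP-1 and CTCF motifs were higher in the strongest than in the weakest peaks. Each signal is the highest among the listed summits of a peak, so it can rise with their number. The part of this choice in the link with width was not tested. When the distal intergenic peaks were split by signal into 4 groups of 1292, the median width was 421 bp in the weakest group (signal up to 9.48) and 690 bp in the strongest (17.7 upwards). ETS motifs were at 11.9% of the weakest group and 16.3% of the strongest, and AP-1 motifs at 9.37% and 12.9%, with 11.5 and 11.7% between. CTCF motifs were at 7.28% of the weakest group and at 10.8, 12.3 and 10.9% of the following ones. RUNX motifs were at 11.9% of the weakest and 12.2% of the strongest group, and the nearest gene had a promoter peak for 76.5% and 76.9%. By the deposited −log10 p, in contrast, the CTCF share was 7.32% among peaks at or above the list's median, against 10.3% of all distal intergenic peaks, and the RUNX share was 14.1%, against 11.9%.

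How many distal intergenic peaks lay in groups depends on the distance at which they are joined. When distal intergenic peaks no more than 12.5 kb apart were joined, 1005 chains of at least 2 held 2664 of them (51.5%), and 73 chains of at least 5 held 433 (8.38%). Peaks of other classes were not joined, so a lone peak can have one of them nearby. The chain with most peaks was beside Irf2bpl, with 10 over 41.6 kb that were nearest to 2 genes, followed by chains of 9 beside S1pr1 (34.6 kb), the chromatin remodeller gene Chd2 (50.2 kb) and Trim33, a regulator of TGF-beta signalling (32.6 kb). Chd2 and Trim33 were named after their values were seen. The median distance to the nearest other peak of any class was 8.46 kb, against 5.09 kb for intergenic peaks at 1 to 10 kb and 10.97 kb beyond 100 kb.

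Chained and lone peaks differed in signal and in CTCF. The median signal was 9.03 (8.59 to 9.86) in chains of at least 5, 11.7 (11.4 to 12.03) in chains of 2 to 4 and 15.03 (14.8 to 15.4) for lone peaks. The deposited −log10 p ran the other way, with medians of 96.1, 91.6 and 82.2 in the same order, so the 2 scores of the authors rank these groups differently. The sources used here do not give the background of the enrichment, and its part in this contrast was not tested. A CTCF motif was found at 3.70% (2.13 to 5.93%) of peaks in chains of at least 5, 8.87% (7.73 to 10.1%) in chains of 2 to 4 and 12.7% (11.5 to 14.1%) of lone peaks. AP-1 motifs were at 13.9% (10.7 to 17.5%), 11.9% (10.6 to 13.3%) and 10.5% (9.33 to 11.8%), and BATF-IRF composites at 1.85% (0.801 to 3.61%), 0.717% and 0.639% (0.366 to 1.04%), with overlapping intervals in both cases. ETS motifs showed no such order, at 13.6%, 13.0% and 13.8%.

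None of the 10 strongest distal intergenic peaks was nearest to a gene of the 16 lists. Each list held only between 0 and 52 of all 5168 peaks, so this count says little about the strongest ones. The highest signal, 64.7, was at chr2:69355469-69355735 upstream of the bile salt transporter gene Abcb11, and 41.8% of the 31-base words of that peak also occur in the mitochondrial genome. The next, 62.7, was at chrX:143482934-143483180 upstream of Pak3, a kinase gene of neurons, and shares no such word. Neither gene had a promoter peak. The peaks that follow were 41.0 (Igf2bp3), 37.1 (Hic2), 36.6 (Oas1f), 36.3 (Cap1), 35.8 (Alkbh8), 35.3 (Tarbp1), 34.0 (Lrfn3) and 33.5 (Hepacam2), and the first 2 stand well above them. Besides Abcb11, only the peaks beside Ric8b (24.4% of words) and Nfasc (17.0%) shared 31-base words with the mitochondrial genome; both were named after their values were seen.

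The 3 peaks nearest to each bound on the inside had signals between 12.8 and 18.1, and those on the outside between 8.26 and 30.5. Just inside 10 kb lay peaks of Calhm6 (10.001 kb, signal 14.2), Cited2 (10.005 kb, 17.5) and Nans (10.005 kb, 17.5), and just outside it those of Aire (9.983 kb, 17.5), Aacs (9.993 kb, 30.5) and Tmigd1 (9.998 kb, 11.7). Just inside 100 kb lay peaks of Ppm1h (99.932 kb, 18.1), Zfp706 (99.919 kb, 13.9) and Ap1s3 (99.793 kb, 12.8). Just outside it lay those of Chic2 (100.058 kb, 26.6), Cdc42ep3 (100.295 kb, 12.4) and Tmsb4x (100.305 kb, 8.26).

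Distal intergenic peaks had lower scores of peak calling and reproducibility than promoter peaks. Their median −log10 p was 87.7, against 82.3 for intergenic peaks at 1 to 10 kb and 232 for promoter peaks. The irreproducible discovery rate (IDR) scores whether 2 peak calls rank a peak alike, and its −log10 had a median of 2.63, against 3.23 for promoter peaks and 2.82 for all peaks. In the 2 IDR inputs, whose nature the sources used here do not give, the −log10 p of the 5168 peaks had medians of 44.9 and 45.3 and a Spearman's rho of 0.930. The ratio of the inputs had a median of 1.00 and lay between 0.651 and 1.54 for the central 90% of peaks. These peaks were kept by an IDR threshold on the same inputs, so these values are no independent measure of agreement. In the authors' longer pseudoreplicated list, 9473 peaks met the same position rule, and 54.4% of them (53.4 to 55.5%) overlapped a peak of the thresholded list, against 75.1% (74.5 to 75.7%) of promoter peaks.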

How the data were processed

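The authors deposited 3 peak lists on mm10, which per the files' listings derive from 1 alignment shared by both technical replicates. Per the labels, both libraries come from 1 biological replicate. Not given in the sources used here are the aligner, peak caller, read shift and background. Deposited values are a signal (the authors' enrichment per peak), a display score, which was not used, and the −log10 p-value and, in the ranked list, −log10 IDR. They were used within a list only, as descriptions or filters.

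Lines of the thresholded list that share an interval were reduced to the summit of highest signal. Coordinates are 1-based on GRCm38.p6, the same assembly as mm10, with the GENCODE M21 annotation and RefSeq's soft-masked FASTA. Names and lengths of all 21 chromosomes were checked. Bases that meet the position rule were counted on a grid of 10 bp. Promoter peaks of a gene overlap the window that reaches 1 kb to both sides of any annotated TSS of that gene. The 25 consensus motifs were searched in 200 bp windows on both strands. All 257 entries of the 16 gene lists matched. Repeat masking is that of the FASTA.

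The peaks and lists were chosen with earlier results of these data known. Named genes are the 10 with most peaks, up to 3 per list with most peaks, a fixed set around Foxp3, and those of the 10 strongest peaks and of peaks at the bounds; others are marked as chosen after their values were seen. Genes of the lists for other cell types are mostly given as counts. With 1 sample there is no test and no p-value of a difference. Exact Clopper-Pearson and order-statistic intervals (95%) cover counting error only. The classification was tested on simulated data. Python 3.11.15, numpy 2.4.6, pandas 2.3.3, scipy 1.17.1 and matplotlib 3.10.9 were used.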

Additional observations from a re-analysis of the deposited data

How the results depend on the processing

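Across 11 alternatives and 6 results, 27 values stayed within their main interval or within 1.5 times the count and 35 moved. The number of distal intergenic peaks, 5168, was 9473 with the pseudoreplicated list, 2584 with a filter at the list's median signal (all peaks), 1939 with at least the median −log10 p, and 8772 with every summit as a peak. The median signal, 13.2, was 8.56, 17.7, 18.2 and 8.997 in the same order. The CTCF share, 10.3%, was 11.6% with the signal filter, 7.32% with the −log10 p filter, 7.89% around interval midpoints, 6.41% with every summit, 9.42% with distance from any TSS and 9.25% beyond 20 kb. The ETS share, 13.4%, was 12.4% with the pseudoreplicated list, 14.8% and 16.6% with the filters, 10.8% around midpoints and also with every summit, and 10.1% and 16.6% in windows of 100 and 400 bp. The RUNX share, 11.9%, was 10.9% with the pseudoreplicated list, 14.1% with the −log10 p filter, 10.3% around midpoints, 10.2% with every summit, 12.9% with any TSS, and 7.91% and 15.8% in the 2 windows. The AP-1 share, 11.4%, was 10.3% with the pseudoreplicated list, 12.3% and 13.3% with the filters, 8.49% around midpoints, 9.30% with every summit, and 8.03% and 15.1% in the 2 windows. Window length sets these shares by construction, and the cause of the other shifts was not tested. Leaving out the 3 peaks that share words with the mitochondrial genome, chosen after seeing the data, moved none of the 6. No paired analysis was possible because both libraries belong to 1 group and were pooled before peaks were called. Depth is unknown, and rare motifs such as EBF (4 peaks) cannot be compared.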
